A study of Rattus norvegicus with 25 samples.

Results

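The molar of an untreated rat was set against molars that had been taken out, dried and replanted 7 days before the tissue was collected. Of the 25 libraries in the series, 13 belong to this comparison: the single untreated library (NT) and the 12 libraries of day 7. The day 7 libraries are 6 of IR-7, from teeth kept dry for 5 min before replantation, and 6 of DR-7, from teeth kept dry for 60 min. All come from Sprague-Dawley rats, were labelled tooth and periodontal ligament, and carry the age label post natal day 21. The labels leave unsaid if rats were that old when the tooth was replanted or when it was collected. A difference in age between the untreated and the replanted rats therefore cannot be told apart from replantation. The labels do not say that the 6 libraries of a group came from separate animals, so their spread may in part be technical.

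Because NT is 1 library, no p-value can be given for it. Each gene is instead described by the log2 ratio of its CPM (counts per 1000000 counts of the library, with TMM scaling) in each day 7 library to its CPM in NT, with 5 CPM added to both, which draws the ratios of low genes towards 0. A gene is called higher where all 12 ratios are above 0 and their median is at least 1, and lower in the mirror case. All 12 ratios of a gene share the 1 value of NT, so the agreement of 12 libraries does not measure the error of NT. The libraries were made by 3′ end sequencing, which reads a tag near the end of each transcript, and hold 5043739 to 8811662 counts at day 7 and 8553992 in NT.

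A molar is held in its socket by the periodontal ligament, a collagen-rich tissue between the cementum of the root and the alveolar bone. Its pulp is lined by odontoblasts, the cells that make dentine, and the socket bone encloses marrow. When a tooth is avulsed the ligament is torn and the pulp loses its blood supply, and osteoclasts, the cells that resorb bone, can also resorb the root of a replanted tooth.

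Of 9024 genes above the filter (a mean of the NT CPM and the mean day 7 CPM of at least 5), 447 were called higher at day 7, which is 4.95%, and 322 were called lower, which is 3.57%. In 2981 genes, 33%, all 12 libraries lay on the same side of NT, 1533 above and 1448 below. The counts of called members below are read against the 4.95% and 3.57% of all genes. The median ratio over all genes was 0.01. When CPM were taken on plain library totals without ribosomal RNA and with no TMM scaling, the median of all genes moved to 0.26. The split became 793 higher and 202 lower of 9290 genes above the filter, so ratios near 0 have no fixed sign. Plain totals with ribosomal RNA kept gave 437 higher and 316 lower. Below, ribosomal RNA left out of the totals means the setting that also drops TMM scaling. The 4 entries for ribosomal RNA took 2.93% of the counts of NT and 9.81 to 31.9% at day 7, and the part of this difference in the results was not tested.

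**Figure D1:**
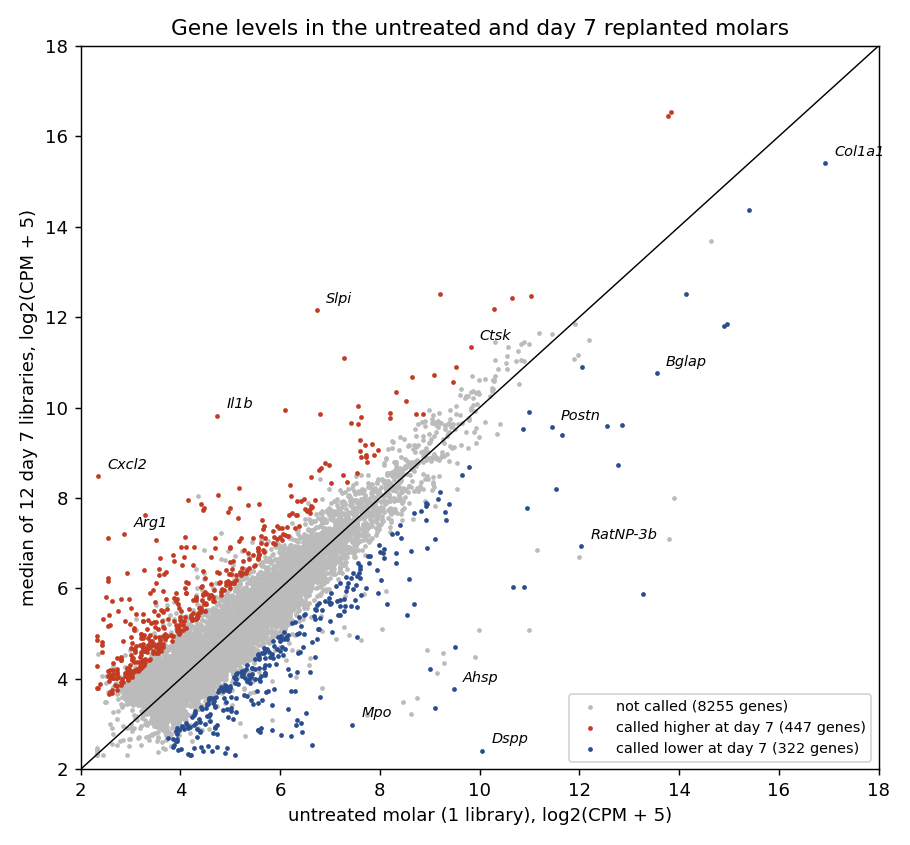
Each point is 1 of the 9024 genes, placed by its level in the untreated molar (x axis) and the median of the 12 day 7 libraries (y axis), both as log2(CPM + 5), with the line of equal level. The 447 genes called higher lie above the line and the 322 called lower below it, and Dspp lies farthest below it among the named genes.

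The libraries did not stand equally far from NT. The root mean square log2 difference from NT over all tested genes ran from 0.69 to 0.92, and that between pairs of day 7 libraries from 0.40 to 0.99. IR-7 replicate 6 was the nearest to NT, at 0.69, and on average the farthest from the other day 7 libraries, at 0.78. The median ratio of the macrophage list was 0.35 in this library and that of the cytokine list 0.36, the lowest of the 12 in both. Genes of the nasal and salivary glands also varied between libraries: 19 genes of those glands took 2.71% of counts in NT and 0.0874 to 9.004% at day 7. The share was above that of NT in 4 libraries, IR-7 replicates 5 and 6 and DR-7 replicates 4 and 6. Without these 4 libraries 598 genes were called higher and 373 lower, and they included 439 of the 447 and 302 of the 322. Fewer libraries then have to agree, so a call is easier to reach. In this setting 6.66% of all tested genes were called higher and 4.16% lower.

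The gene farthest below NT in its nearest library was Dspp. It encodes dentine sialophosphoprotein, the main non-collagen protein that odontoblasts secrete, and is the defining marker of those cells. NT held it at 1059 CPM (9035 counts). The 6 IR-7 libraries ranged from 0 to 2.89 CPM with a median of 1.22, and the 6 DR-7 libraries from 0 to 2.25 CPM with a median of 0.232. No day 7 library overlapped NT, and the median log2 ratio was -7.64, which the offset limits. The tissue labelled tooth and periodontal ligament held almost no transcript of the defining odontoblast gene at day 7. In bulk tissue, fewer cells of a type and less RNA per cell cannot be told apart, here and below.

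Of 14 odontoblast and pulp genes above the filter, 7 were called lower and none higher, with a list median of -1.07. Nes, the intermediate filament nestin that odontoblasts carry, lay at 53.9 CPM in NT and at 3.17 to 15.8 CPM (median 8.72) at day 7. Phex, an endopeptidase of odontoblasts and osteocytes that regulates phosphate, lay at 544 CPM in NT and at 87.8 to 289 CPM (median 132) at day 7. Msx2, a homeobox factor of tooth development, had a median ratio of -1.42. All 12 libraries were below NT for each of these genes, whereas Dmp1, a mineral matrix protein shared with osteocytes, was at 643 CPM in NT and at 318 to 806 CPM at day 7, above NT in 2 libraries and below it in 10. Of 5 tested enamel genes, 2 were called lower and none higher.

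Mmp20, the protease that processes enamel matrix, was at 19.9 CPM in NT and at 0 to 1.26 CPM at day 7. Odam, an odontogenic protein of the epithelium attached to the tooth, was at 83.2 CPM in NT and at 1.52 to 47.1 CPM at day 7, with a median ratio of -1.75. Amelx, the main enamel matrix protein, had no count in NT, where 3 counts would be 0.352 CPM, and 0 to 16.3 CPM at day 7. Amelx and Ambn, another enamel matrix protein, did not pass the filter.

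Some bone matrix genes were lower and others lay around NT. The list of osteoblast and mineralization genes had 6 of 16 tested members called lower and none higher, with a median of -0.89. With ribosomal RNA left out of the totals this became 3 called lower and a median of -0.56. The summed share of the list was 21.4% of counts in NT and 6.74 to 15.1% at day 7. Col1a1, a type I collagen gene, is in the list and alone was at 124684 CPM in NT. A large part of this share is therefore the collagen described below. Bglap, osteocalcin, a protein of mature osteoblasts, was at 11984 CPM in NT. In IR-7 it ranged from 1084 to 3161 CPM with a median of 1545, and in DR-7 from 1317 to 2253 CPM with a median of 1849. The groups did not overlap with NT, and the median ratio was -2.79.

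Ibsp, bone sialoprotein, and Spp1, osteopontin, are mineral-binding matrix proteins that did not follow Bglap. Ibsp was at 3840 CPM in NT and at 2996 to 5697 CPM at day 7, above NT in 5 libraries and below in 7. Spp1 was at 2341 CPM in NT and at 2177 to 4332 CPM at day 7, above NT in 10 libraries. Runx2, the transcription factor of the osteoblast lineage, had a median ratio of 0.01. Omd, osteomodulin, a small leucine-rich protein of bone and ligament, lay below NT in all 12 libraries, with 378 CPM in NT, 38.1 to 96.6 CPM at day 7 and a median ratio of -2.36.

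Collagen made up a large part of NT. Col1a1, the main chain of type I collagen, was at 124684 CPM in NT, at 33934 to 87289 CPM in IR-7 (median 43524) and at 30784 to 48179 CPM in DR-7 (median 41914), a median ratio of -1.52. IR-7 replicate 3 was the highest of the 12 and the nearest to NT. Col3a1, type III collagen, was at 17987 CPM in NT and at 3533 to 9706 CPM at day 7, a median ratio of -1.64. Of 10 fibrillar and associated collagen genes tested, 5 were called lower and none higher. Without the 4 libraries of high nasal gland share this became 3 lower and 1 higher. Without IR-7 replicate 6 alone it was 5 lower and 1 higher, and with ribosomal RNA left out of the totals 3 lower and none higher. Of 16 genes for collagen processing, 4 were called lower, P3h3, Loxl2, Pcolce and Adamts2, which modify, cross-link or trim procollagen, with median ratios between -1.35 and -1.11. Without ribosomal RNA in the totals 2 of the 16 were called, and Pcolce and Adamts2 were not.

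**Figure D2:**
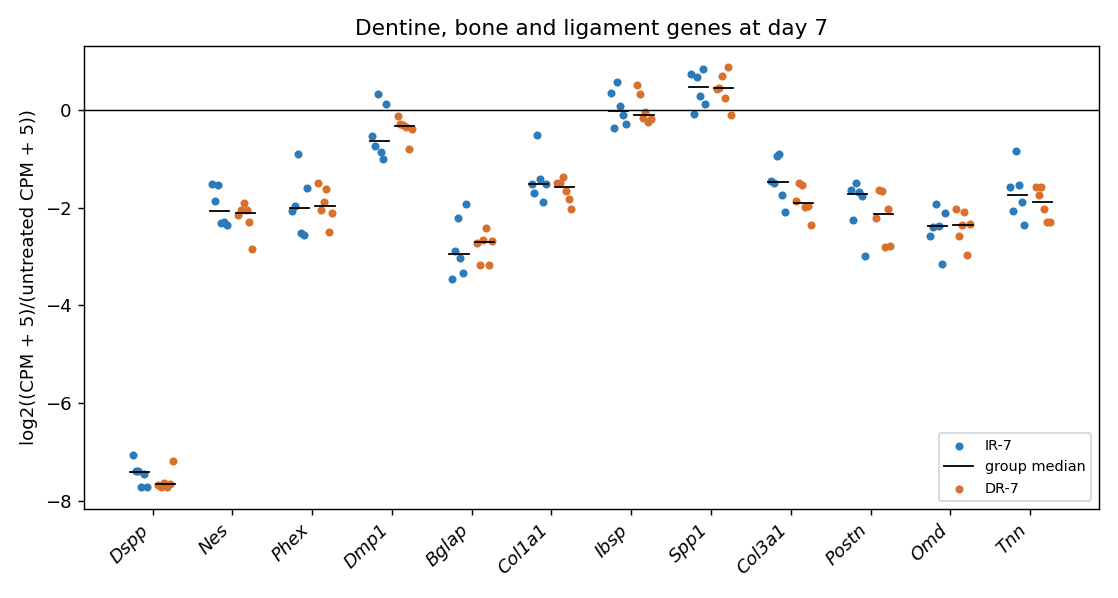
Log2((CPM + 5)/(untreated CPM + 5)) of 12 dentine, bone and ligament genes, with 1 point per library, IR-7 in blue and DR-7 in orange, a black line at each group's median and the untreated molar at 0. Dspp lies between -7.73 and -7.07, whereas Ibsp and Spp1 lie around 0.

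Genes of the periodontal ligament were lower in part. Of 15 tested members, 4 were called lower and none higher, with a list median of -0.58, which became -0.36 without the 4 libraries of high nasal gland share, -0.38 without IR-7 replicate 2 and -0.29 with ribosomal RNA left out of the totals. The count of 4 was the same in all of these. Postn, periostin, a matrix protein that the ligament makes in quantity, was at 2780 CPM in NT, at 346 to 990 CPM in IR-7 and at 395 to 887 CPM in DR-7, a median ratio of -1.89. Tnn, tenascin N, was at 638 CPM in NT and at 120 to 356 CPM at day 7, and Aspn, asporin, at 95.4 CPM in NT and at 9.4 to 60.8 CPM at day 7. Scx, a transcription factor of tendon and ligament, and Dcn, decorin, had median ratios of -0.07 and 0.33.

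Genes of red cell precursors were lower almost throughout. Red cells mature in the marrow, where nucleated precursors switch on the globins, heme synthesis and the erythroid transcription factors, and the youngest cells in the blood still carry some of that RNA. Of 15 tested members of the erythroid list, 14 were called lower and none higher, with a list median of -3.13. Their summed share of counts was 7.40% in NT and 0.260 to 3.32% at day 7, highest in DR-7 replicate 6 and IR-7 replicate 6. The exception was Tfrc, the transferrin receptor used by all dividing cells, at 0.71 and above NT in some libraries only.

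Ahsp, the chaperone of free alpha globin, was at 711 CPM in NT. It ranged from 1.05 to 43.3 CPM in IR-7 and from 1.56 to 53.3 CPM in DR-7, a median ratio of -5.73. Slc4a1, band 3, was at 506 CPM in NT and at 3.03 to 51.1 CPM at day 7. Klf1, the erythroid transcription factor, was at 59.8 CPM in NT and at 0 to 3.92 CPM at day 7, and Rhag, the Rh-associated membrane protein, at 13.2 CPM in NT and at 0 to 0.529 CPM at day 7. Car1, carbonic anhydrase 1, was at 94.6 CPM in NT and at 0 to 3.57 CPM. The alpha globin genes Hba1 and Hba2 and the beta globin genes Hbb and Hbb-b1 are close copies within each pair, whose reads may be split between entries, and they had median ratios from -3.32 to -2.96.

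The sequence before the start of some of these genes is given as a description, and its part in their lower values was not tested. RefSeq windows of 300 bases on GRCr8, from 250 before to 50 after the start, were matched for 8 of the 14 genes called lower, with 9 windows because Hemgn has more than 1. The letters GATAA on either strand, the core recognised by the GATA family of factors, stood in 4 of the 9 windows, in 4 genes, and in 26.5% of all 33469 windows. The letters CACCC on either strand, the core recognised by KLF family factors, stood in 4 of the 9 windows, also in 4 genes, and in 54.9% of all windows. A match is a description of the letters only. Capitals mark GATAA or its reverse complement, and Epb42 is shown as a gene with none. Hbb, Hbb-b1 and Tal1, which are not shown, also had none. The windows are chr19:40158602-40158901 on the minus strand for Klf1, chrX:22895200-22895499 on the plus strand for Alas2, the enzyme of heme synthesis, chr9:27594341-27594640 on the minus strand for Rhag, and chr3:128451634-128451933 on the minus strand for Epb42, a membrane skeleton protein.
Klf1: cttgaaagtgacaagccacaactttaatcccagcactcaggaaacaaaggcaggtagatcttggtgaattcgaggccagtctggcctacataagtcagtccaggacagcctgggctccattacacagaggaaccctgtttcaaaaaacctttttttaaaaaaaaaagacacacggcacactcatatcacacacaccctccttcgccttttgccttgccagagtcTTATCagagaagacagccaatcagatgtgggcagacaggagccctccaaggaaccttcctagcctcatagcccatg
Alas2: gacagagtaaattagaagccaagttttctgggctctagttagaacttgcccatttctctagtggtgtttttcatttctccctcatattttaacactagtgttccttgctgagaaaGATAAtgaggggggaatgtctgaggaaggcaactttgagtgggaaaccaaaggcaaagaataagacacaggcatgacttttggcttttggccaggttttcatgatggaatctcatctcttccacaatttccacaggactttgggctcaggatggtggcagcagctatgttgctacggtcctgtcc
Rhag: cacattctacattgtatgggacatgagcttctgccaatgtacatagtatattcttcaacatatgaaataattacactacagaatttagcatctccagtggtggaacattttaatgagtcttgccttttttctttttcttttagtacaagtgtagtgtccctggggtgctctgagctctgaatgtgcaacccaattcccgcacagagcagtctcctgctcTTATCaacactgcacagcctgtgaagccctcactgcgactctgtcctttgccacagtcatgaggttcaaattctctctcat
Epb42: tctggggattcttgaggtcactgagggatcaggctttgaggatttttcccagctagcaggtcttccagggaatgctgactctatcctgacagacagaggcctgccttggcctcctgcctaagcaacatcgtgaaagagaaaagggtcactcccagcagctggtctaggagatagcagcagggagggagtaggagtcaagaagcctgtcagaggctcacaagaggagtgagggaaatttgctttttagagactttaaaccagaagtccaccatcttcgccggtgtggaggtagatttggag

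Genes of neutrophils and granulocyte precursors were mostly lower, among them genes for the contents of the granules made in marrow. Of 13 tested members, 9 were called lower and 2 higher, with a list median of -2.71. The summed share of the list was 1.61% in NT against 0.256 to 0.795% at day 7. S100a8 and S100a9, described below, are in the list and were at 4266 and 4004 CPM in NT. A large part of this share is therefore not from precursor granule genes. Mpo, myeloperoxidase, was at 170 CPM in NT, at 0.501 to 11 CPM in IR-7 and at 0.116 to 5.2 CPM in DR-7, a median ratio of -4.46. Ngp, a neutrophil granule protein, was at 548 CPM in NT and at 0.538 to 46.6 CPM at day 7, and Camp, the antimicrobial cathelicidin, at 719 CPM in NT and at 10.1 to 104 CPM. The alpha-defensin entries RatNP-3b, Np4 and Defa5 had median ratios of -5.10, -4.65 and -4.87, and since they are close paralogs their reads may be shared.

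Other neutrophil genes of the list lay nearer NT or above it. S100a8, a calcium-binding protein of mature neutrophils, was at 4266 CPM in NT and at 834 to 3275 CPM at day 7 (-1.17), a call lost with ribosomal RNA left out of the totals. S100a9, its partner, was at 4004 CPM in NT and at 671 to 4166 CPM, above NT in 2 of 12 libraries. Csf3r, the receptor for the granulocyte growth factor, had 21 counts in NT, which is 2.46 CPM with a 95% exact Poisson interval of 1.52 to 3.76, and lay at 3.36 to 68.9 CPM at day 7 (2.39). Lcn2, lipocalin 2, was called higher too, at 1.05. The count of 2 members called higher became 1 without DR-7 replicate 2, DR-7 replicate 5 or IR-7 replicate 1.

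**Figure D3:**
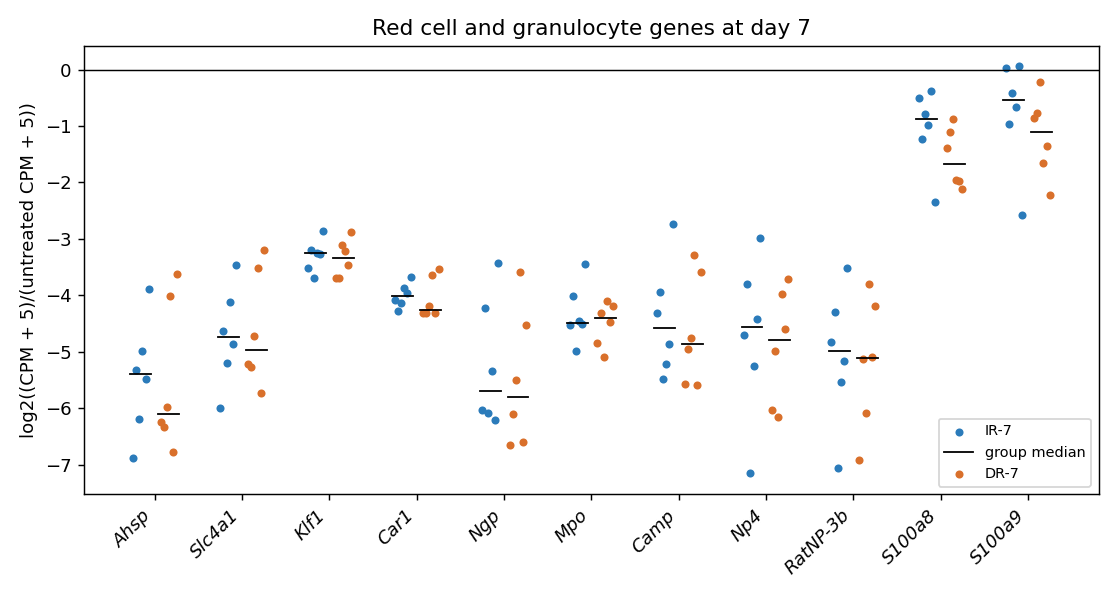
Log2((CPM + 5)/(untreated CPM + 5)) of 4 red cell genes and 7 granulocyte genes, with 1 point per library, IR-7 in blue and DR-7 in orange, a black line at each group's median and the untreated molar at 0. All 12 points of every gene lie below 0 except S100a9, where 2 libraries lie above.

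Chemokines, the proteins that draw leukocytes into tissue, were mostly higher at day 7. Of 19 tested chemokine genes, 15 were called higher and 1 lower, with a list median of 2.18. The 15 became 12 without DR-7 replicate 2 or DR-7 replicate 6, and 16 without IR-7 replicate 3. Cxcl2, which draws neutrophils, had 1 count in NT (0.117 CPM, 95% exact Poisson interval 0.00297 to 0.653). It lay at 41.4 to 903 CPM in IR-7, median 303, and at 112 to 895 CPM in DR-7, median 443. Ccl3, a macrophage inflammatory protein, had 7 counts in NT (0.82 CPM) and lay at 22.3 to 293 CPM at day 7. Cxcl12, the factor that keeps blood stem cells and leukocytes in marrow, was the member called lower, at 317 CPM in NT and 61.5 to 116 CPM at day 7, a median ratio of -1.77.

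Of 10 tested cytokine genes, 6 were called higher and none lower, with a median of 1.74. The 6 became 5 with plain library totals and when some single libraries were left out. Il1b, interleukin 1 beta, was at 21.7 CPM in NT, at 102 to 1920 CPM in IR-7 (median 885) and at 282 to 1772 CPM in DR-7 (median 971), a median ratio of 5.08. IR-7 replicate 6 was the lowest of the 12, with a ratio of 2.01. Il1rn, the natural antagonist of the same receptor, was at 63.9 CPM in NT and at 153 to 1810 CPM at day 7, a median ratio of 3.84. Il6 had no count in NT and did not pass the filter.

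Macrophage genes were higher as a group. Of 24 tested members, 15 were called higher and none lower, with a median of 1.41. The 15 became 13 without DR-7 replicate 2, DR-7 replicate 5 or DR-7 replicate 6. The summed share of the list was 0.532% in NT and 0.762 to 1.82% at day 7. Arg1, arginase 1, an enzyme of wound macrophages, was at 2.34 CPM in NT and at 15.9 to 377 CPM at day 7, a median ratio of 4.32. Cd68, a lysosomal marker, was at 45.6 CPM in NT and at 68.9 to 258 CPM at day 7. Apoe, a lipid carrier, was at 1599 CPM in NT and at 3875 to 8747 CPM. Cd163, a scavenger receptor of resident macrophages, had a median ratio of -0.71. Of 8 tested genes of MHC class II presentation, 6 were called higher and none lower. The 6 became 5 with plain library totals and when most single libraries were left out. RT1-Da, called higher, was at 184 CPM in NT and at 494 to 1191 CPM at day 7.

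Genes of osteoclasts were mostly higher. Of 11 tested members of the list, 7 were called higher and 1 lower, with a median of 1.20. Ctsk, cathepsin K, the collagen-degrading protease of osteoclasts, was at 898 CPM in NT, at 1454 to 5331 CPM in IR-7 (median 2869) and at 1330 to 2754 CPM in DR-7 (median 2387). Acp5, tartrate-resistant acid phosphatase, was at 701 CPM in NT, at 1140 to 2695 CPM in IR-7 and at 1007 to 1601 CPM in DR-7, a median ratio of 1.11, which was under 1, and so not called, without DR-7 replicate 5, IR-7 replicate 1 or IR-7 replicate 3. Atp6v0d2, a subunit of the proton pump that acidifies the resorption pit, was at 41.8 CPM in NT and at 62.4 to 285 CPM at day 7. No day 7 library overlapped NT for these genes. Car2, carbonic anhydrase 2, which supplies the protons and is also made by red cell precursors, was the member called lower, at -1.40.

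Among the signals for osteoclast formation, Tnfrsf11a, the receptor RANK, was at 6.45 CPM in NT and at 11.1 to 43.4 CPM at day 7, and Csf1r, the receptor for the macrophage growth factor, at 92.3 CPM in NT and at 122 to 350 CPM. The ligand RANKL, Tnfsf11, had no count in NT and 0 to 0.897 CPM at day 7 and did not pass the filter. Its decoy receptor Tnfrsf11b, osteoprotegerin, was at 8.2 CPM in NT and at 6.16 to 20.6 CPM at day 7, on both sides of NT.

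Of 16 tested matrix proteases and inhibitors, 4 were called higher and 1 lower. Mmp12, macrophage elastase, was at 12.9 CPM in NT and at 51.5 to 528 CPM at day 7 (3.80), and Mmp9, a gelatinase of osteoclasts and neutrophils, at 202 CPM in NT and at 286 to 1224 CPM (1.47). Timp1, a protease inhibitor, had a median ratio of 1.56, and Timp3, another, of -1.53. Mmp13, a collagenase of bone, lay at 904 CPM in NT and at 853 to 1869 CPM, above NT in 9 libraries.

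**Figure D4:**
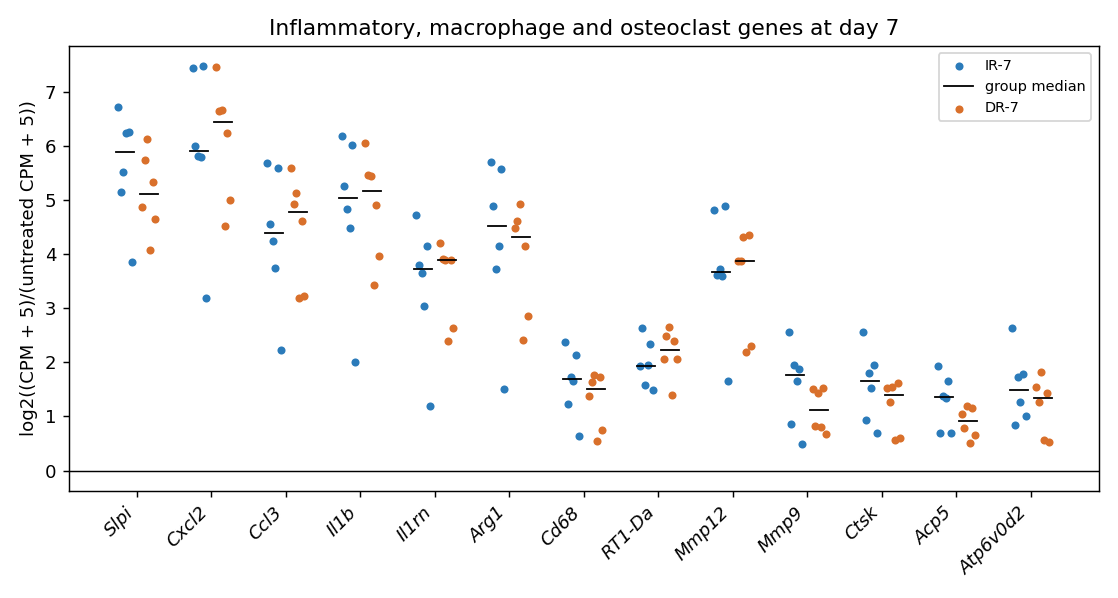
Log2((CPM + 5)/(untreated CPM + 5)) of 13 inflammatory, macrophage and osteoclast genes, with 1 point per library, IR-7 in blue and DR-7 in orange, a black line at each group's median and the untreated molar at 0. All points lie above 0, and the spread between libraries is wide for Il1b, whose ratios run from 2.01 to 6.17.

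The gene farthest above NT in its nearest library was Slpi, the secretory leukocyte protease inhibitor of epithelia. It was at 101 CPM in NT, at 1524 to 11108 CPM in IR-7 (median 6439) and at 1784 to 7459 CPM in DR-7 (median 3694). The epithelial beta-defensins Defb4 and Defb3 had median ratios of 3.79 and 3.70, and Krt16, a keratin of stressed epithelium, was at 12.3 CPM in NT and at 58.6 to 324 CPM at day 7. In the gingival epithelium list as a whole, 2 of 16 tested members were called higher and 1 lower, with a median of 0.20. That median was 0.08 without DR-7 replicate 5 or without DR-7 replicate 6, and 0.52, with 4 members called higher, when ribosomal RNA was left out of the totals. The count of 2 became 1 without DR-7 replicate 1, DR-7 replicate 2 or IR-7 replicate 3, and the 1 called lower became 2 without IR-7 replicate 5. Krt14, the basal keratin of epithelia, lay on both sides of NT, at 331 CPM in NT and at 132 to 678 CPM. The summed share of that list was 0.234% in NT and 0.148 to 0.531% at day 7. Also named by the ranking were Lce1l, RGD1562885 (C20h6orf15), LOC257642 and the ribosomal RNA entries Rn18s and Rn45s on the higher side and LOC689064 on the lower side.

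Of 32 tested cell cycle genes, 12 were called lower and none higher, and 26 had all 12 libraries below NT, with a median of -0.82. With ribosomal RNA left out of the totals 6 were called lower. Mcm6, a part of the replication helicase, was at 105 CPM in NT and at 23.1 to 37.7 CPM at day 7 (-1.68), and Ccnb2, cyclin B2, at 27.5 CPM in NT and at 3.13 to 8.07 CPM (-1.66). Mki67, the proliferation marker, was at 67.5 CPM in NT and at 19.1 to 55.4 CPM, below NT in all 12 libraries but with a median of -0.71. The shares of the erythroid list and of the neutrophil and granulocyte precursor list were lower in the same libraries. Their part in the cell cycle values was not tested.

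Schwann cell genes, which insulate the nerves of pulp and ligament, had 4 of 12 tested members called lower and none higher. Mbp, myelin basic protein, was at 276 CPM in NT and at 16 to 155 CPM at day 7 (-2.48), and Pmp22, a peripheral myelin protein, at 490 CPM in NT and at 80.2 to 190 CPM (-2.05). Of 21 tested BMP and TGF-beta genes, 4 were called higher and 2 lower, with a median of -0.32. Grem1, a BMP antagonist, was called higher, at 14.1 CPM in NT and at 24.2 to 173 CPM at day 7 (2.26). Of 19 tested Wnt genes, 3 were called lower and none higher. Wif1, a Wnt inhibitor, was at 244 CPM in NT and at 34.2 to 72.5 CPM (-2.07). Of 14 tested immediate early genes, 4 were called higher and none lower, and Fos and Junb had median ratios of 2.51 and 2.49. Hmox1, heme oxygenase, had a median ratio of 2.08. Its oxidative stress list had 5 of 19 tested members called higher and 1 lower. The interferon list had 4 of 21 tested members called higher and 1 lower. Without the 4 libraries of high nasal gland share 9 were called higher. Fewer libraries have to agree there, and 6.66% of all tested genes were called higher, against 4.95%. Its member Ifit3 was at 16.2 CPM in NT and at 18.8 to 564 CPM, lowest in IR-7 replicate 6.

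**Figure D5:**
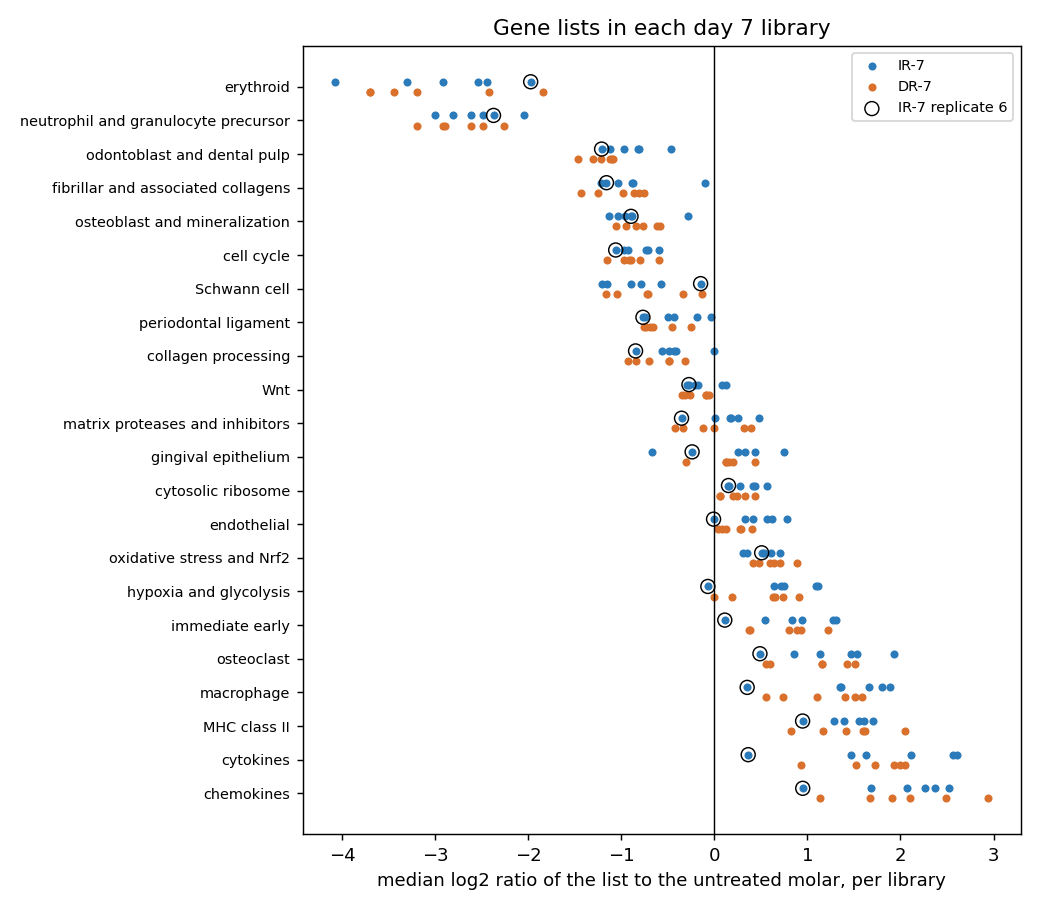
Each point is the median log2 ratio to the untreated molar of the tested genes of 1 list in 1 day 7 library, IR-7 in blue and DR-7 in orange, with a circle around IR-7 replicate 6 and the untreated molar at 0. By the median over the 12 libraries the erythroid list lies lowest and the chemokine list highest of those shown, though single libraries order them otherwise. IR-7 replicate 6 is the lowest of the 12 in the macrophage and cytokine lists.

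Genes of skeletal muscle, which lies beside the jaw bone, varied widely between libraries. The 18 genes took 0.128% of counts in NT, 0.00691 to 0.344% in IR-7 and 0.00638 to 0.0541% in DR-7. Acta1, skeletal actin, was at 260 CPM in NT, at 2.89 to 618 CPM in IR-7 and at 3.36 to 73.3 CPM in DR-7, so that 3 libraries lay above NT and 9 below. None of the 17 tested members was called.

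NT cancels when the drying times are compared, so DR-7 against IR-7 can be tested. With edgeR's quasi-likelihood test, 0 of 10782 genes had a Benjamini-Hochberg adjusted p under 0.05, which is 0%, and 396 genes had an unadjusted p under 0.05. The smallest adjusted p was 0.996. DESeq2 called 1 gene, Cfd, complement factor D, a product of adipocytes, lower in DR-7 by 0.45 on the log2 scale with an adjusted p of 0.0151. The log2 difference of DR-7 from IR-7 was -0.08 with a standard error of 0.27 for Bglap, -0.27 with 0.21 for Col1a1, -0.57 with 0.45 for Slpi, and -0.43 with 0.20 for Acp5. A p that misses the threshold does not show that the drying times acted alike, and for Cxcl2 the difference of -0.06 had a standard error of 0.67.

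The day 3 libraries, 6 at each drying time, share NT with the comparison above and are given side by side only, each scaled over all 25 libraries. Dspp had a median of 0.147 CPM over the 12 day 3 libraries and Ahsp of 7.58 CPM, both below NT in all 12. Il1b had a median ratio of 0.97 at day 3, above NT in 7 libraries, and Ctsk of -1.17, above NT in 5. Slpi was above NT in 8 of the 12 day 3 libraries and in all 12 at day 7. Bglap had a median ratio of -4.15 at day 3 and was below NT in all 12 libraries at both times.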

How the data were processed

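The deposited files hold whole-number counts per gene symbol for each library, which the authors made with a 3′ end library kit, per the labels' protocols. The submitters' processing notes name Bowtie2, edgeR and the builds mm10 and rn6, with no role or version. For a repeated symbol (149 of 16881) the entry with the highest total was kept. CPM were computed on TMM library sizes (edgeR 4.0.16 in R 4.3.3) over the 13 libraries, with an offset of 5 CPM. Intervals of NT counts are exact Poisson intervals and cover counting error only.

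DR-7 was tested against IR-7 with edgeR's quasi-likelihood test and Benjamini-Hochberg adjustment over all genes, on 10 residual degrees of freedom; standard errors are the log2 difference divided by the root of the F statistic. The printed test and standard errors are unpaired. Every same-numbered pair of IR-7 and DR-7 deviations from the group means correlated above 0.1 (0.209 to 0.730), so a fit with the number as a block was an alternative; the labels do not state a pairing. Alternatives were other scalings, offsets and filters, NT at its Poisson bound, summed symbols, a replicate block, DESeq2 1.42.0 and libraries left out. The calling rules were run on simulated data only with changes far larger than a call needs. The edgeR step was run on simulated data with a single size of change. Smaller changes were not simulated.

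The members, gene lists and named genes were chosen with earlier results of these data known. Per direction, the 12 called genes whose nearest library lay farthest from NT, with at least 20 CPM on the higher side, were named. So were as many as 4 called genes from any list described, and a fixed set of 27 genes. Of that set, Acta2, Eln and Tnc are described only here, and each lay on both sides of NT. Acta2 was at 223 CPM in NT and at 151 to 307 CPM at day 7. Eln was at 101 CPM in NT and at 48.3 to 143 CPM, and Tnc at 18.4 CPM in NT and at 9.4 to 27.7 CPM. Other members are named by their role in a list, after their values were seen.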

Additional observations from a re-analysis of the deposited data

Results flagged for a closer look

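Within the groups of 6 day 7 libraries, 192 combinations of gene and group were examined (96 of the genes named in the text). In 12 of them, 1 library stood far from the other 5, and chance flags about 1 in 20 groups. Of the 12, 7 concern IR-7 replicate 6. Its log2 ratio to NT was 0.17 for Ifit3, against 3.26 in the next library, 0.74 for Junb, against 2.37, and -0.83 for Dcn, against 0.41. For the ribosomal RNA entries it was 1.70 for Rn18s, against 2.62, and 1.68 for Rn45s, against 2.67. Its ratio was 1.26 for Amelx, against 0.46, and -0.25 for Ambn, against -0.60. DR-7 replicate 6 stood apart at -7.20 for Dspp, against -7.64 in the next library, at -1.72 for Rhag, against -1.83, and at 0.018 for Ambn, against -0.42, all at under 3 CPM. Col1a1 was at -0.51 in IR-7 replicate 3, against -1.40 in the next library. Tnfsf11 was at 0.24 in DR-7 replicate 1, against 0.05, and lay under 1 CPM in every library.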

How the results depend on the processing

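NT is 1 library, so its own variation is unknown. For a gene with a count of 0 in it, 3 counts would be 0.352 CPM, a floor that concerns counting error only. The 447 genes called higher became 793 with ribosomal RNA left out of the totals, 296 with an offset of 10 CPM, 273 with a filter at 20 CPM (5404 genes tested), 275 with NT at the bound of its Poisson interval and 83 with a median of at least 2. The 322 called lower became 202 without ribosomal RNA and 61 with a median of at least 2. The 2981 genes with 1 sign became 1983 with the filter at 20 CPM and 1875 with NT at its bound. Under the other settings these counts stayed within 1.5 times. Leaving out 1 library at a time gave 381 to 476 higher, 322 to 403 lower and 3010 to 3394 with 1 sign. Fewer libraries have to agree in that case, so a count that did not fall does not show that the calls are stable. The named genes were put through these settings, apart from those named only under the other observations below. Of the 77 called genes among them, none changed sign under the settings run for it, but some calls were lost. These were Adamts2, Pcolce and S100a8 without ribosomal RNA, and Tnfrsf11a with an offset of 10 CPM. Csf3r, Ifit3, Lcn2 and Tnfrsf11a were lost with NT at its bound, and Acp5 or Lcn2 with single libraries left out. Without the 4 libraries of high nasal gland share, an alternative chosen after seeing the data, the list medians named in the text kept their sign.

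For DR-7 against IR-7, DESeq2 called 1 gene, and edgeR 0 under the other settings and with each library left out. The replicate block left the edgeR calls at 0 and had 783 genes whose unadjusted p was under 0.05, so the block changed no call. The smallest adjusted p of edgeR was 0.338 with the block, against 0.996 without it. Without IR-7 replicate 6, 1042 genes had an unadjusted p under 0.05, against 396.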

Other observations

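The genes below were chosen after their values were seen, from those called higher or lower, and are on no list used here. Treml1, a receptor of platelets, was at 82.1 CPM in NT and at 0.142 to 11.9 CPM at day 7, Gp1bb, a platelet glycoprotein, at 73.7 CPM in NT and at 5.10 to 16.9 CPM, and Pf4, platelet factor 4, at 175 CPM in NT and at 23.6 to 78.8 CPM. Vpreb3, a gene of B cell precursors, was at 42.3 CPM in NT and at 0 to 12.9 CPM, and Rag1, the recombinase of antigen receptor genes, at 12.9 CPM in NT and at 0 to 1.25 CPM. The list of B and plasma cell genes had 1 of 7 tested members called lower and none higher, with a median of -0.18 that was 0.08 with ribosomal RNA left out of the totals. Gata1, a transcription factor of red cells and megakaryocytes, was at 18.6 CPM in NT and at 0 to 1.63 CPM.

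Thbs4, thrombospondin 4, a matrix protein of tendon and ligament, was at 1964 CPM in NT and at 148 to 397 CPM at day 7. On the higher side, Sod2, the mitochondrial superoxide dismutase, was at 106 CPM in NT and at 212 to 1635 CPM, and Nfkbia, the inhibitor of NF-kappa-B that the factor itself induces, at 317 CPM in NT and at 411 to 2290 CPM. Il36a, an epithelial cytokine, had no count in NT and lay at 9.51 to 87.4 CPM at day 7.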
